A study of Homo sapiens with 6 samples.

Results

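A set of 10 enzymes of triglyceride synthesis was examined in Huh7, a human hepatocellular carcinoma cell line. They are 3 long-chain acyl-CoA synthetases (ACSL1, ACSL3, ACSL4), which activate fatty acids, and 7 enzymes that build glycerolipid from the activated acids (GPAM, AGPAT2, AGPAT3, LPIN2, LPIN3, DGAT1, DGAT2). The genes were taken by symbol, as those of acyl-CoA activation and of glycerolipid acylation up to triglyceride. All 10 symbols were found among the 37822 genes of the table, and all 10 passed the filter on low counts. Each library is bulk RNA, in which fewer cells of a kind and less RNA per cell cannot be told apart.

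The 2 groups compared held 3 libraries each. The FLAG group was Huh7 of wild type genotype infected with a FLAG control lentivirus, and the VPS72 group was Huh7 infected with a lentivirus that overexpresses VPS72, a subunit of chromatin complexes that handle the histone variant H2A.Z. Both groups were exposed to virus made in HEK293T cells, for 24 h, and were grown in the same serum-containing medium. The labels do not say whether infected cells were selected or cloned, nor whether the 3 replicates are separate cultures. The p-values therefore rest on the spread of these libraries alone, and that spread may be technical.

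Fatty acids enter glycerolipid synthesis only as acyl-CoA. A glycerol 3-phosphate acyltransferase adds the first acyl chain, an acylglycerol phosphate acyltransferase adds the next and makes phosphatidic acid, a lipin removes the phosphate to give diacylglycerol, and a diacylglycerol acyltransferase adds the last chain. In hepatocytes the product is stored in lipid droplets or loaded onto very low density lipoprotein, and several genes of the route are known targets of SREBP1, the lipogenic transcription factor. The title of the study links gains of VPS72 to lipogenesis through SREBP1, and the comparison here is of the mRNA of this route with and without the overexpression.

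The libraries held 21345279 to 29091824 counts. Levels are given as CPM, the count relative to the TMM-scaled library size, and differences as log2 fold changes of VPS72 over FLAG with their standard error (SE). VPS72 stood at 21.3 to 26.7 CPM under the FLAG virus and at 1150 to 1173 CPM under the VPS72 virus, as the labels say. Across 14253 genes tested with edgeR's quasi-likelihood test, 60 rose and 28 fell at a Benjamini-Hochberg adjusted p under 0.05. That split was 32 and 54 with library size as the only scaling, 44 and 32 with upper quartile scaling, 22 and 27 with the abundance trend removed, and 279 and 69 with the trend of transcript GC content and length removed. Among 10 hepatocyte markers all were detected, and their summed level ran from 19207 to 20018 CPM in FLAG and, without overlap, from 21678 to 22498 CPM in VPS72 libraries. The summed level of 8 fibroblast markers ran from 169 to 181 CPM in FLAG and, again without overlap, from 202 to 210 CPM in VPS72 libraries. Nearly all of it was LUM, the 1 of the 8 that rose, at 164 ± 6.33 and 196 ± 4.0 CPM (SD, n = 3 per group). COL1A1 stood at 7.06 ± 0.465 and 6.21 ± 1.36 CPM and PDGFRB at 2.29 ± 0.236 and 2.89 ± 1.02 CPM without passing, COL1A2 and COL3A1 lay below 1 CPM on average, and DCN, THY1 and POSTN were at or near 0. Summed immune markers stayed at or below 2.07 CPM and summed endothelial markers at or below 4.94 CPM. The 5 adipocyte markers summed to between 5.44 and 7.84 CPM in FLAG libraries and between 6.88 and 7.79 CPM in VPS72 libraries, nearly all of it CIDEC, a lipid droplet protein (6.75 ± 1.30 and 7.26 ± 0.477 CPM). PLIN1 held 1 to 4 counts per library, and ADIPOQ, LEP and FABP4 were at 0 counts in all 6 libraries, which allows up to 0.140 CPM in the shallowest library (3 counts, counting error only).

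GPAM was the only 1 of the 10 genes that changed, and it rose by 18.2%. In 9 of 10 genes the fitted log2 fold change was above 0, as it was in 48.8% of all tested genes and in 53.2% of the 8560 genes within the abundance range of these 10. The median over the 10 genes was 0.07 on the log2 scale (4.86%), against -0.00 over all tested genes and 0.01 (0.464%) over the 8560. With library size as the only scaling it was 0.04, against -0.04 over all tested genes, and 8 of 10 estimates were above 0. The count of 1 riser in 10 stands beside 0.421% of tested genes that rose and 0.617% that changed either way, and 0 of the 10 fell, beside 0.196% of tested genes. At an unadjusted p under 0.05, 2 of 10 lay higher (GPAM and ACSL4) and 0 lower, where 6.03% of tested genes lay higher and 5.51% lower. Of the 8560 genes in the same abundance range, 697 lay higher and 513 lower. In 3 of 10 genes (GPAM, ACSL4 and ACSL1) every VPS72 library lay above every FLAG library, as in 8.76% of tested genes, and in 0 of 10 below, as in 8.47%. Among the 8560 genes it was so above in 957 and below in 731. The 10 genes were chosen with earlier results of these data known, so these counts describe the set and do not test it. Beside these values, 7 of the 10 hepatocyte markers also rose, and their part in the result was not tested.

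**Figure D1:**
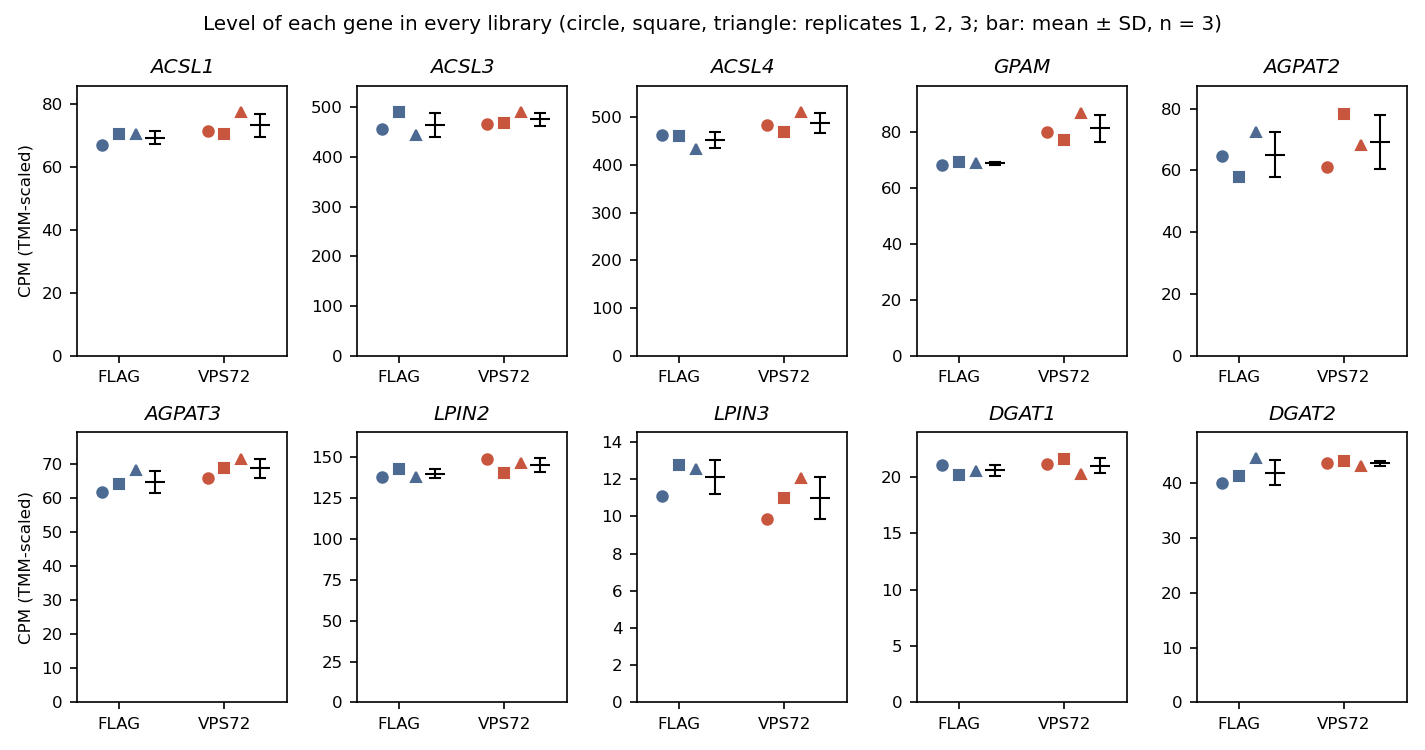
Level of each of the 10 genes in every library, in TMM-scaled CPM on axes that start at 0, with FLAG libraries in blue, VPS72 libraries in red and the mean with its SD (n = 3) in black. GPAM separates, from 68.2 to 69.4 CPM in FLAG and from 77.2 to 86.8 CPM in VPS72 libraries, while AGPAT2 spreads widely in both groups.

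GPAM encodes the glycerol 3-phosphate acyltransferase of the outer mitochondrial membrane, which commits acyl-CoA to glycerolipid. The FLAG libraries held 68.2, 69.4 and 69.0 CPM in replicates 1 to 3, and the VPS72 libraries 80.2, 77.2 and 86.8 CPM. The groups did not overlap, with the lowest VPS72 library in replicate 2 and the highest in replicate 3. Its log2 fold change was 0.24 ± 0.05 (SE), with a 95% confidence interval for the change of 9.52% to 27.6% (edgeR quasi-likelihood, Benjamini-Hochberg adjusted p = 0.0489). The spread was uneven between groups, with a coefficient of variation of 0.893% in FLAG and 6.03% in VPS72 libraries, where counting error alone would give 2.45% and 2.16%. The call lies close to the threshold: it was lost in each of the 6 fits that leave out 1 library, with edgeR's Benjamini-Hochberg adjusted p from 0.0535 without VPS72 replicate 2 to 0.221 without FLAG replicate 1. In those fits the log2 fold change stayed between 0.19 and 0.28.

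**Figure D2:**
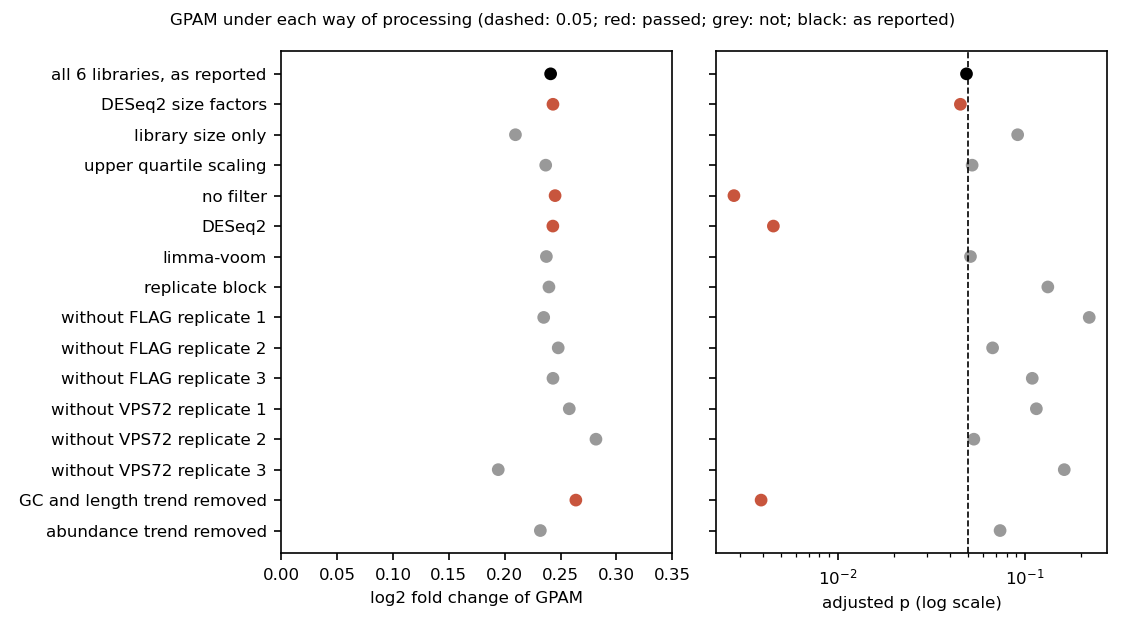
Fitted log2 fold change of GPAM (left) and its adjusted p on a log axis (right) as reported and under 15 other ways of processing, with the threshold of 0.05 dashed. The log2 fold change lies between 0.19 and 0.28 in all of them, and the adjusted p passes in 4 of the 15.

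The stretch before the transcription start of GPAM is shown because GPAM is the gene that rose. It is the RefSeq sequence of GRCh38.p14 from 250 bases to 1 base before the start, chr10:112183766-112184015 on the minus strand, with matches to the motifs searched in capitals.
GPAM promoter: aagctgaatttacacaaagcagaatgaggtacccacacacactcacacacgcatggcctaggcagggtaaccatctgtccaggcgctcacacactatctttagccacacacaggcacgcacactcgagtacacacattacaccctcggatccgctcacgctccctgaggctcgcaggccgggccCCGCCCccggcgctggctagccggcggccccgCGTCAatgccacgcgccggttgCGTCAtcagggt
A set of 7 motifs were searched on both strands. The window holds 1 GC box (GGGCGG, the site class of Sp1) at -66 to -61 and 2 copies of the short form of the cAMP response element (TGACG, bound by factors of the ATF and CREB family), at -34 to -30 and at -12 to -8, each read on the opposite strand. A GC box occurs in 42.6% and the short element in 21.2% of 35116 RefSeq promoter windows of the same length, and in 61.5% and 27.1% of the 15401 windows of tested genes. No match was found in this window for the core of the sterol regulatory element (TCACNCCAC, in 0.883% of windows), the E-box CACGTG (6.34%), the CCAAT box (32%), the full cAMP response element (TGACGTCA, 1.65%, which contains the short one) or the AP-1 site (TGANTCA, 6.57%). Of the 10 genes, 7 matched the promoter table, with 13 windows in all. LPIN3, DGAT1 and DGAT2 had no entry. Besides GPAM, the short element was found in a window of ACSL1, ACSL4 and LPIN2. The GC box was found in ACSL1, ACSL3, ACSL4, AGPAT2 and LPIN2, the CCAAT box in ACSL1, ACSL3 and AGPAT3, and the E-box in LPIN2. The AP-1 site and the sterol core were each found in 1 window of ACSL1, which has 5 windows. By window, the short element was in 4 of 13, the GC box in 7 and the CCAAT box in 3. Among windows of tested genes the CCAAT box occurs in 33.5%, the E-box in 8.21%, the AP-1 site in 4.55% and the sterol core in 0.838%. These are matches of letters, and binding was not measured.

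ACSL4, which prefers arachidonic and other polyunsaturated acids and is known for its part in ferroptosis, came next by p. It stood at 463, 461 and 433 CPM in FLAG replicates 1 to 3 and at 484, 469 and 510 CPM in VPS72 replicates 1 to 3. The groups did not overlap, though FLAG replicate 1 and VPS72 replicate 2 lay close together. A log2 fold change of 0.11 ± 0.04 (SE), with an interval of 1.85% to 14.2%, did not pass (edgeR, Benjamini-Hochberg adjusted p = 0.262). It passed in 1 of 15 other fits, with the GC and length trend removed (0.0236).

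ACSL3 sits on the endoplasmic reticulum and on nascent lipid droplets. Its levels were 457, 490 and 443 CPM in FLAG and 467, 469 and 491 CPM in VPS72 libraries, and the groups overlapped. Its log2 fold change of 0.04 ± 0.04 (SE) did not pass (edgeR, Benjamini-Hochberg adjusted p = 0.804) and turned to -0.01 with the abundance trend removed. The 95% interval of its change ran from -3.29% to 8.62%.

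ACSL1, the main acyl-CoA synthetase of hepatocytes and a target of PPAR-alpha, stood at 67.1, 70.7 and 70.5 CPM in FLAG and at 71.7, 70.7 and 77.5 CPM in VPS72 libraries. The groups did not overlap, but FLAG replicate 2 (70.68) and VPS72 replicate 2 (70.73) were nearly equal. At 0.08 ± 0.05 (SE), its log2 fold change did not pass (edgeR, Benjamini-Hochberg adjusted p = 0.618). Of the other activating enzymes tested, none passed. SLC27A4, a fatty acid transport protein with acyl-CoA synthetase activity, stood at 41.9 ± 3.56 and 42.8 ± 2.22 CPM, and DBI, the acyl-CoA binding protein, at 247 ± 8.14 and 265 ± 3.43 CPM (SD, n = 3 per group). DBI had a log2 fold change of 0.10 ± 0.04 (edgeR, Benjamini-Hochberg adjusted p = 0.294).

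The acylglycerol phosphate acyltransferases differed in their spread. AGPAT2, whose loss causes a congenital lipodystrophy, stood at 64.8, 57.9 and 72.6 CPM in FLAG and at 61.0, 78.3 and 68.1 CPM in VPS72 libraries. Its groups overlapped over most of their range, with the lowest library in FLAG and the highest in VPS72. The coefficient of variation was 11.3% in FLAG and 12.6% in VPS72 libraries, where counting error alone would give 2.53% and 2.35%, and it was the widest of the 10 genes in both groups. Its log2 fold change of 0.09 ± 0.09 (SE) did not pass (edgeR, Benjamini-Hochberg adjusted p = 0.766), with an interval of -6.28% to 20.6%, and turned to -0.01 without VPS72 replicate 2. AGPAT3, an isoform of the same step that prefers polyunsaturated acyl-CoA, had 61.7, 64.1 and 68.0 CPM in FLAG and 65.7, 68.7 and 71.3 CPM in VPS72 libraries, where FLAG replicate 3 lay above VPS72 replicate 1. Its log2 fold change was 0.09 ± 0.05 (SE; edgeR, Benjamini-Hochberg adjusted p = 0.59), close to that of AGPAT2 but with a narrower interval of -1.97% to 14.97%.

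AGPAT2 was also set beside other genes of high transcript GC content. Its reference transcript is the richest of the 10 in G and C, at 65.9%, against 37.4% for ACSL4 and 38.1% for ACSL3. Among 727 genes of more than 20 CPM with the highest GC content (60.2% to 71.9%), the median log2 deviation from the mean of the 6 libraries was 0.02, -0.09 and 0.09 in the FLAG libraries and -0.09, 0.06 and 0.03 in the VPS72 libraries, each in replicate order. AGPAT2 deviated by -0.04, -0.20 and 0.12 in FLAG and by -0.13, 0.23 and 0.03 in VPS72 libraries, with the sign of that median in 5 of 6 libraries. DGAT1, in the same class at 63.2% GC, deviated by 0.02, -0.04 and -0.02 in FLAG and 0.02, 0.05 and -0.04 in VPS72 libraries, with the sign of that median in 3 of 6. The part of GC content in these differences was not tested. With the trend removed, the log2 fold change of AGPAT2 was 0.13 and again did not pass (edgeR, Benjamini-Hochberg adjusted p = 0.248).

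**Figure D3:**
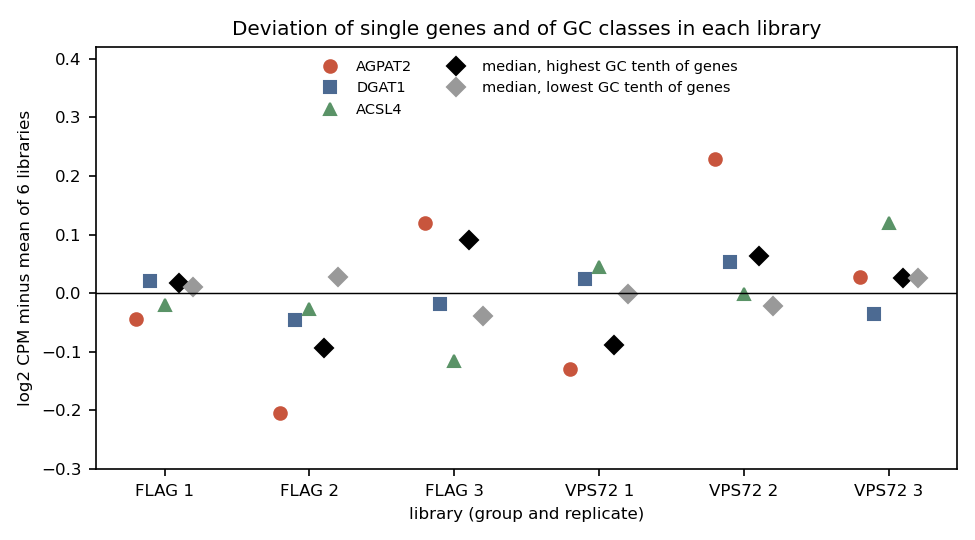
Log2 CPM minus the mean over the 6 libraries, per library, for AGPAT2, DGAT1 and ACSL4 and for the medians of the genes of highest and lowest GC content. AGPAT2 runs from -0.20 in FLAG replicate 2 to 0.23 in VPS72 replicate 2, and the median of the genes of highest GC content from -0.09 to 0.09.

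The lipins, which act as phosphatidic acid phosphatases and also as nuclear coregulators, did not pass. LPIN2, an isoform abundant in liver, stood at 138, 143 and 138 CPM in FLAG and at 149, 141 and 146 CPM in VPS72 libraries, with overlap only through FLAG replicate 2 and VPS72 replicate 2. Its log2 fold change was 0.06 ± 0.04 (SE), with an interval of -2.33% to 10.5% (edgeR, Benjamini-Hochberg adjusted p = 0.673). LPIN3 was the least abundant of the 10 genes, with 269 to 325 counts per library. It had 11.1, 12.8 and 12.5 CPM in FLAG and 9.84, 10.99 and 12.1 CPM in VPS72 libraries. It was the only gene of the 10 with a negative estimate, a log2 fold change of -0.14 ± 0.12 (SE) that did not pass (edgeR, Benjamini-Hochberg adjusted p = 0.714), and its interval of -24.2% to 7.93% is the widest of the 10. The estimate was negative in all 15 other fits, which draw on the same libraries, and it passed in 0 of them. LPIN1, the isoform not among the 10, had 75.7 ± 2.96 and 79.5 ± 3.18 CPM (SD, n = 3 per group) and did not pass.

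The final acylation is carried out by enzymes of unrelated sequence. DGAT1, which is known to esterify mainly fatty acids from outside the cell, had 21.1, 20.1 and 20.5 CPM in FLAG and 21.1, 21.6 and 20.3 CPM in VPS72 libraries, so that the groups overlapped. Its log2 fold change of 0.03 ± 0.08 (SE) did not pass (edgeR, Benjamini-Hochberg adjusted p = 0.943) and turned to -0.00 with library size as the only scaling. DGAT2, which is linked to newly made fatty acids in liver, had 40.1, 41.2 and 44.5 CPM in FLAG and 43.8, 44.1 and 43.1 CPM in VPS72 libraries. FLAG replicate 3 was its highest library, and no VPS72 library lay above it. The log2 fold change of DGAT2 was 0.06 ± 0.06 (SE; edgeR, Benjamini-Hochberg adjusted p = 0.798). Intervals were -9.81% to 15.5% for DGAT1 and -5.08% to 14.3% for DGAT2.

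Some of these genes share exonic positions with other genes of the GENCODE release 29 annotation, and the sources do not say whether reads were counted by strand. DGAT1 overlaps HSF1 on the opposite strand, which stood at 68.0 ± 0.633 and 66.4 ± 1.57 CPM (SD, n = 3 per group), above DGAT1 itself. On its own strand DGAT1 overlaps the non-coding AC233992.1, and MIR6848, which held 0 counts in all 6 libraries. ACSL4 overlaps KCNE5 on its own strand (0.954 ± 0.112 and 0.732 ± 0.421 CPM), and LPIN3 overlaps EMILIN3 on the opposite strand, below 1 CPM in both groups. ACSL3, LPIN2 and DGAT2 overlap antisense transcripts only. GPAM, ACSL1, AGPAT2 and AGPAT3 overlap no other annotated exon.

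Levels were compared between genes per kilobase of the reference transcript. ACSL4 and ACSL3 led, at 88.1 and 82.7 CPM per kb over the 6 libraries, followed by AGPAT2 at 44.4, LPIN2 at 22.9, ACSL1 at 18.1, DGAT2 at 17.4, GPAM at 11.8, AGPAT3 at 11.5, DGAT1 at 5.60 and LPIN3 at 2.79 CPM per kb. The median tested gene stood at 7.28 CPM per kb. Neighbours in this order whose library ranges overlapped were ACSL4 and ACSL3, ACSL1 and DGAT2, and GPAM and AGPAT3. With the median length of the basic coding transcripts in place of the longest principal transcript, ACSL3 stood above ACSL4 (106 against 89.9 CPM per kb), ACSL1 above LPIN2, and AGPAT3 above GPAM, so these orders depend on the length used.

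**Figure D4:**
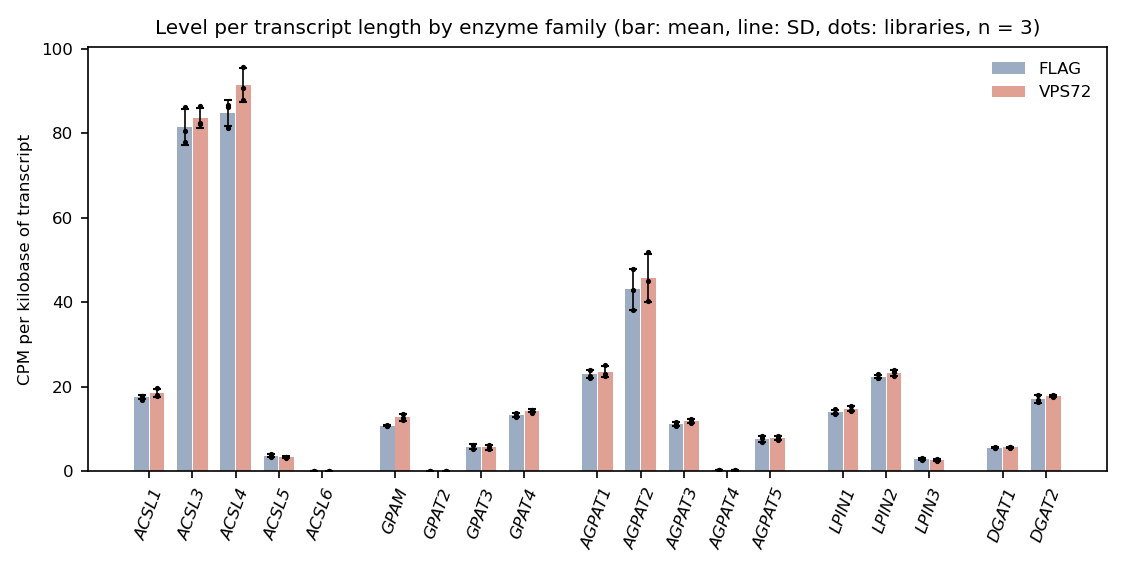
CPM per kilobase of transcript for every gene of 5 enzyme families, FLAG in blue and VPS72 in red, with bars for the mean, lines for the SD and dots for the libraries (n = 3 per group). ACSL3 and ACSL4 stand above 78 CPM per kb in every library, while ACSL6, GPAT2 and AGPAT4 lie near 0.

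By mean level per kb, the order of isoforms within each of 5 families was the same in both groups. ACSL4 and ACSL3 made up 45.8% and 43.0% of the summed level per kb of the 5 ACSL genes, and ACSL1 9.40%. DGAT2 made up 75.5% ± 1.23 of the summed DGAT level in FLAG and 75.9% ± 0.386 in VPS72 libraries (SD, n = 3 per group). LPIN2 made up 56.9% ± 0.460 and 57.2% ± 1.5 of the lipins, and AGPAT2 50.4% ± 2.49 and 51.1% ± 2.62 of the 5 AGPAT genes. In the GPAT family GPAT4 was first in every library, and the share of GPAM went from 35.9%, 37.1% and 35.2% in the FLAG libraries to 38.4%, 37.7% and 40.9% in the VPS72 libraries, without overlap. The summed GPAT level was 30.0 ± 0.737 CPM per kb in FLAG and 32.8 ± 0.579 in VPS72 libraries, 9.28% higher, and the other 4 family sums were 3.31% to 4.94% higher, with overlap between the groups. These sums share the values above and carry no test of their own.

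The rest of the route was read from 56 other genes of glycerolipid synthesis, its branches and its regulators, of which 46 were tested. Of these 1 rose, 0 fell and 45 did not pass, where 0.421% of all tested genes rose and 0.196% fell. At an unadjusted p under 0.05 in edgeR, 6 of the 46 lay higher and 0 lower, beside 6.03% and 5.51% of all tested genes. In 8 of the 46 every VPS72 library lay above every FLAG library and in 2 below, beside 8.76% and 8.47%. The 2 below were AGPAT4 (2.56 ± 0.127 and 1.78 ± 0.543 CPM) and CTDNEP1 (35.2 ± 1.16 and 33.6 ± 0.675 CPM; SD, n = 3 per group). Neither passed (edgeR, Benjamini-Hochberg adjusted p = 0.513 and 0.769). This list, too, was chosen with earlier results of these data known. The riser was INSIG1, which retains the SREBP precursors in the endoplasmic reticulum and is itself an SREBP target. It stood at 148 ± 6.38 CPM in FLAG and 177 ± 10.7 CPM in VPS72 libraries (SD, n = 3 per group), 0.26 ± 0.05 higher on the log2 scale (adjusted p = 0.0238 in edgeR). The call of INSIG1 was lost in 4 of the 6 fits that leave out 1 library, where the adjusted p of edgeR (Benjamini-Hochberg) reached 0.18, that without FLAG replicate 1. The median over the 46 genes was 0.02 on the log2 scale, against -0.0038 over all tested genes. The 10 genes not tested were ACSL6, ACSBG1, ACSBG2, SLC27A6, GPD1, GPAT2, PLPP2, MOGAT1, MOGAT2 and FITM1, none of which held more than 18 counts in a library.

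At the step of GPAM, the endoplasmic reticulum enzyme GPAT4 had 83.8 ± 2.46 and 90.2 ± 2.46 CPM and CHP1, which is known to bind and activate GPAT4, 262 ± 2.49 and 289 ± 4.09 CPM (SD, n = 3 per group). In both the groups did not overlap. The log2 fold changes were 0.11 ± 0.05 for GPAT4 and 0.14 ± 0.04 for CHP1, and neither passed (edgeR, Benjamini-Hochberg adjusted p = 0.368 and 0.0866). GPAT3, an isoform of the endoplasmic reticulum known from adipocytes, had 15.4 ± 1.46 and 14.9 ± 1.27 CPM with overlap. Whether the change of GPAM differs from that of GPAT4 was not tested.

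**Figure D5:**
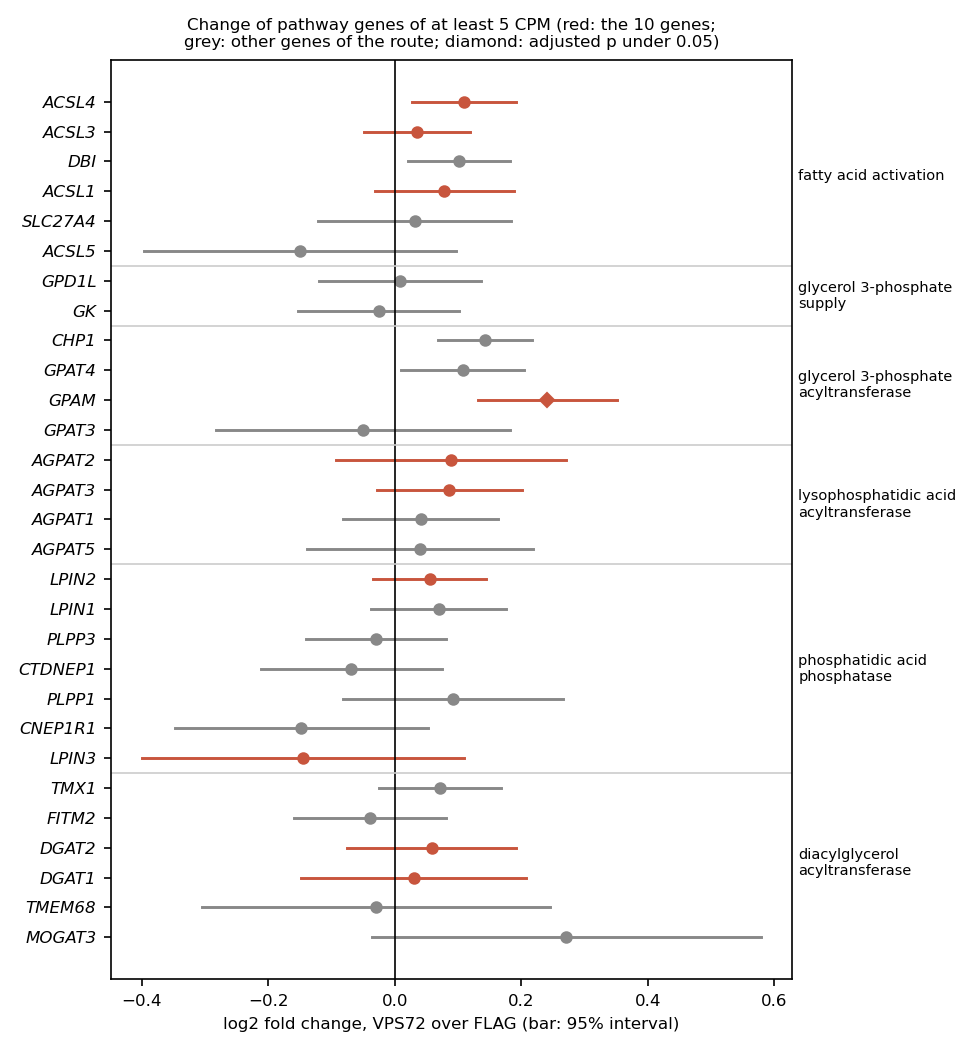
Log2 fold change of VPS72 over FLAG with its 95% interval for genes of at least 5 CPM from fatty acid activation to triglyceride, ordered by step, the 10 genes in red and the others in grey; branches and regulators, INSIG1 among them, are not plotted. GPAM, the diamond, is the only gene plotted with an adjusted p under 0.05, and LPIN3 is the only 1 of the 10 with an estimate below 0.

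At the other steps no gene passed. Of the genes of glycerol 3-phosphate supply, GPD1L, a glycerol 3-phosphate dehydrogenase, stood at 68.0 ± 5.82 and 68.4 ± 1.98 CPM and GK, glycerol kinase, at 50.6 ± 0.816 and 49.7 ± 2.95 CPM (SD, n = 3 per group). AGPAT1 had 57.3 ± 2.44 and 58.9 ± 3.17 CPM, AGPAT5 28.2 ± 2.59 and 29.03 ± 1.49 CPM, and the phosphatase PLPP3 62.7 ± 2.32 and 61.5 ± 1.62 CPM. TMX1, a partner of the alternative triglyceride synthase TMEM68, had 79.7 ± 0.521 and 83.7 ± 2.65 CPM, and FITM2, which acts in lipid droplet formation, 63.9 ± 2.71 and 62.2 ± 3.57 CPM. In the phospholipid branch CHKA, choline kinase, had 344 ± 2.31 and 342 ± 12.6 CPM, and ETNK1, ethanolamine kinase, 206 ± 9.13 and 210 ± 6.15 CPM. SOAT1, which esterifies cholesterol, had 110 ± 5.75 and 122 ± 5.24 CPM without overlap (0.15 ± 0.05 on the log2 scale; adjusted p = 0.226 in edgeR), and its isoform SOAT2 stood at 1.86 ± 0.388 and 2.20 ± 0.803 CPM. Of the regulators, SREBF1, which encodes SREBP1, did not pass, and its groups overlapped. Its log2 fold change was 0.02 ± 0.07 (SE; edgeR, Benjamini-Hochberg adjusted p = 0.943), with an interval of -7.84% to 12.1%. SREBF2 had 233 ± 2.30 and 235 ± 9.96 CPM and SCAP, the SREBP escort protein, 118 ± 6.54 and 120 ± 4.42 CPM. These values are mRNA levels, and enzyme amounts, SREBP processing and triglyceride were not measured in these data.

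The genes whose pattern over the 6 libraries was most like that of GPAM were MOCS3, ORM1 and AK4. Likeness was the root mean square difference in log2 CPM after centring each gene, over 10415 genes of at least 5 CPM. The difference was 0.008 for MOCS3, an enzyme of molybdenum cofactor synthesis and tRNA thiolation, 0.02 for ORM1, the acute-phase protein orosomucoid, and 0.03 for AK4, a mitochondrial adenylate kinase, where the median gene differed by 0.15. ORM1 went from 185 ± 1.37 to 215 ± 10.4 CPM and AK4 from 151 ± 3.04 to 175 ± 7.87 CPM, and both rose, while MOCS3, from 16.8 ± 0.0369 to 19.8 ± 1.11 CPM, did not pass (SD, n = 3 per group; edgeR, Benjamini-Hochberg adjusted p = 0.0298, 0.0353 and 0.297). These genes were picked for likeness to GPAM over both groups, so a shift near that of GPAM was fixed by the choice. Their calls are no separate support for the rise of GPAM. ORM1 has a near-identical neighbour, ORM2, so its estimated counts are uncertain. Of the other 9 enzymes the closest to GPAM was ACSL4, at 0.07, with 2.32% of genes closer, and the farthest was LPIN3, at 0.21, with 80.7% closer. This order, too, takes in the difference between the groups.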

How the data were processed

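Per the labels' protocols, RNAzol served for RNA isolation and the KAPA RNA HyperPrep kit for the libraries. The table the authors deposited holds estimated counts per gene that are whole and not normalized, a unit read from the values. STAR, RSEM and limma, and the builds hg19 and hg38, stand in the submitters' processing notes with no role. Their versions, the annotation and the build behind the table are unknown here, so RefSeq (GRCh38.p14) and GENCODE release 29 served only for promoters, transcript length, GC content and overlaps. RSEM-style estimation splits reads among similar genes, which makes near-identical copies uncertain.

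Genes were filtered with filterByExpr by group (minimum count 10, minimum total 15), which left 14253 genes with 99.9% of the counts. Libraries were scaled with TMM and the groups compared with the quasi-likelihood test of edgeR 4.0.16 (R 4.3.3). Adjustment was by Benjamini-Hochberg over all tested genes, at a threshold of 0.05. The SE is the log2 fold change divided by the square root of the F statistic, and 95% intervals use the test's degrees of freedom. The common coefficient of variation between libraries was 7.24%, and libraries of a group differed by more than sampling noise (chi-square per degree of freedom 4.70 to 7.69). An exact permutation test of 3 libraries against 3 cannot go below p = 0.1. Transcript length is that of the longest principal transcript. Deviations and likeness use log2(CPM + 0.5).

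The members, gene lists and motifs were chosen with earlier results of these data known. Named were the 10 genes, every other pathway gene past the threshold, up to 2 further most abundant genes per role, and the 3 genes most like the member with the smallest p. GPAT3, AGPAT4, CTDNEP1, SREBF1, the genes not tested and the overlapping genes were named after their values were seen. Other settings were size factors of DESeq2, library size alone, upper quartile scaling, no filter, DESeq2 (1.42.0), limma-voom (limma 3.58.1), the replicate number as a block and each library left out. Removal of a smooth trend with GC content and length (known for 99.5% of tested genes) or with abundance, and the median transcript length, were chosen after seeing the data.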

Additional observations from a re-analysis of the deposited data

How the results depend on the processing

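The rise of GPAM kept its direction in all 15 other fits, and its call held in 4 of them. These fits draw on the same 6 libraries, in which GPAM did not overlap, so the shared direction is no separate support. No member changed with library size only, upper quartile scaling, limma-voom, the replicate block or the abundance trend removed (0 of 10 each), nor without any single library (0 to 0), while 2, GPAM and ACSL4, changed with the GC and length trend removed. GPAM had adjusted p = 0.0917 with library size only, 0.0524 with upper quartile scaling, 0.0513 with limma-voom, 0.133 with the replicate block and 0.0739 with the abundance trend removed (edgeR but for limma-voom, Benjamini-Hochberg). Over all genes, 264 changed without a filter, 249 with DESeq2, 32 with the replicate block, 348 after removal of the GC and length trend, 49 after that of the abundance trend, and 25 (without FLAG replicate 1) to 100 (without FLAG replicate 2) when 1 library was left out. Of the other pathway genes, 2 (CHP1 and INSIG1) changed without a filter, with DESeq2, with limma-voom and once the trend of GC content and length was removed, 0 with the replicate block and with the abundance trend removed, and 0 to 1 without single libraries. The members' median log2 fold change moved from 0.0684 to 0.037 with library size only, and that of all tested genes from -0.0038 to -0.0353. The sign turned for DGAT1 with library size only (-0.0019), for AGPAT2 without VPS72 replicate 2 (-0.0075 to 0.1775 over the single libraries left out) and for ACSL3 with the abundance trend removed (-0.011). The cause of these changes was not tested.

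Deviations of same-numbered libraries correlated at -0.302, -0.14 and 0.154 over 7350 genes, and the highest value, 0.43, was between FLAG replicate 2 and VPS72 replicate 1. Deviations were taken from the mean of each group of 3 libraries, which ties these correlations to one another. They cannot settle whether replicate numbers pair the libraries. Counting error limits LPIN3 most, at 5.85% and 5.91% per library. Shares within families moved with the transcript length used, that of AGPAT2 from 50.7% to 30.1% without length scaling.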
